A study of Cannabis sativa with 10 samples.

Results

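The NAC genes are a plant-specific family of transcription factors, named for petunia NAM and Arabidopsis ATAF and CUC2, whose proteins bind DNA through a conserved domain at the amino end and regulate transcription through a variable remainder. In Arabidopsis, different members set the boundaries between organs, switch on the thick walls of vessels and fibres, act in senescence and stress, or stay anchored in a membrane until they are released to the nucleus. They were measured here in shoot tips of Cannabis sativa, where apices change from leaf-bearing to flower-bearing growth. Genes were taken as NAC where the deposited table's family column said so or where the product description named a NAC domain-containing protein, a NAC transcription factor or a CUP-SHAPED COTYLEDON protein. This gave 81 of the 35192 genes in the table: 51 by both criteria, 6 by the family column alone and 24 by the description alone. For 80 of the 81, the closest Arabidopsis protein was described as a NAC in the same table, and the remaining gene, LOC115715828, had NAC071 as its closest match. All 81 were protein-coding in the RefSeq gene table of the same assembly. Roles below are those of the closest Arabidopsis protein, which is not evidence of the same role in cannabis.

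The study sequenced messenger RNA from apical shoot tips of genotype A3 in 10 libraries. They form 5 groups of 2: vegetative apices, female apices at weeks 1 and 3 of flowering, and male apices at weeks 1 and 3. The 4 male libraries came from plants in which the labels record male flower induction with STS, read here as silver thiosulfate, a blocker of ethylene perception that makes genetically female cannabis plants bear male flowers. No other group carries that label, so male against female is also treated against untreated, and the effects of sex and treatment cannot be told apart. A single genotype was used, the labels do not say that the libraries of a group came from separate plants, and p-values therefore measure only the spread between libraries, which may be technical.

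Levels are FPKM, read counts scaled for gene length and library depth, with totals of 603616 to 764672 per library. Relative depth, read from the lowest values, ran from 0.863 to 1.23 times that of female week 1 replicate 1. Among markers of cell types, the STM and KNAT1 matches of the shoot meristem were above 0 in every library, and no gene matched CLV3. The WUS match was at 0 in 3 of the 10 libraries, at most 0.403 FPKM outside male week 3 and at 2.66 and 5.77 in it. The 7 leaf mesophyll genes summed to 5474 and 6368 FPKM in vegetative libraries and to 1374 to 1637 in the 4 week 3 libraries. The 11 tapetum and pollen genes tested summed to 1.30 to 2.28 FPKM in the 8 libraries outside male week 3, and to 1566 and 2344 in the male week 3 libraries. An apex is a mixture of cells, and in such bulk samples fewer cells of a type and less RNA per cell cannot be told apart.

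The NAC family reached higher summed levels at week 3 than before. Summed over the 81 genes, NAC transcripts came to 371 and 345 FPKM in the vegetative pair, 354 and 351 in the week 1 female pair and 380 and 354 in the week 1 male pair. At week 3 the sums were 565 and 571 in the female and 913 and 817 in the male pair. The 4 week 3 libraries lay above the 6 earlier ones, and the male pair above the female pair. A single gene, LOC115696790, held 38.7% and 29.7% of the male week 3 sums. Without it these were 560 and 575 FPKM and lay beside the female ones. The number of NAC genes at 1 FPKM or more was 33 and 34 in the vegetative pair, 37 in each week 1 female library, 39 and 42 in the week 1 male pair, 39 and 41 in the week 3 female pair, and 48 and 54 in the week 3 male pair. Conversely, 21 to 26 of the 81 were listed at 0 in each library outside male week 3, against 7 in each male week 3 library.

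Differences were tested with limma on log2(FPKM + 1) over the 18309 genes whose mean reached 1 FPKM in at least 1 group, with the Benjamini-Hochberg adjustment over all of them and a threshold of 0.05. Differences below are on that scale, on which changes of low genes come out too small, and ± is the standard error (SE) of the fit, with n = 2 libraries per group. Of the NAC genes, 58 entered the test, and the 23 others stayed under 1 FPKM in every group. The group mean was highest in male week 3 for 23 of the 58 (39.7%, against 37.7% of all genes tested), in female week 3 for 22 (37.9%, against 25.0%), in male week 1 for 6, in vegetative apices for 5 and in female week 1 for 2. In female week 3 against vegetative apices, 26 NAC genes rose (44.8%, against 19.8% of all genes tested) and 4 fell (6.90%, against 16.8%). In male week 3 against vegetative apices, 35 rose (60.3%, against 34.8%) and 4 fell (6.90%, against 27.9%). The median difference of the 58 genes was 0.36 in the female and 0.60 in the male comparison, beside 0.01 and 0.05 over all genes tested. These comparisons share the vegetative libraries. Of the 58 genes, 5 (8.62%, against 1.38% of all genes tested) were listed at 0 outside male week 3. They entered the test only through male week 3 and could not fall there. The same holds for further genes with a mean under 1 FPKM in every other group. Among these were LOC115695713, LOC115696792, LOC115706643, LOC115721938 and LOC115725272. The male week 3 rises include all of these genes, so the level filter set that share in part.

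The same lean towards rises stood between the weeks. From female week 1 to week 3, 28 NAC genes rose (48.3%, background 18.7%) and 1 fell (1.72%, background 16.5%). From male week 1 to week 3, 27 rose (46.6%, background 33.8%) and 8 fell (13.8%, background 27.9%). Between the sexes at week 3 the family split: 20 genes were higher in male (34.5%, background 31.7%) and 17 higher in female apices (29.3%, background 28.6%), shares near the background. The male week 3 calls stand beside the tapetum and pollen markers, of which 11 of 11 rose in the same libraries in each of the 3 comparisons with male week 3. Their part in the NAC results was not tested.

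**Figure D1:**
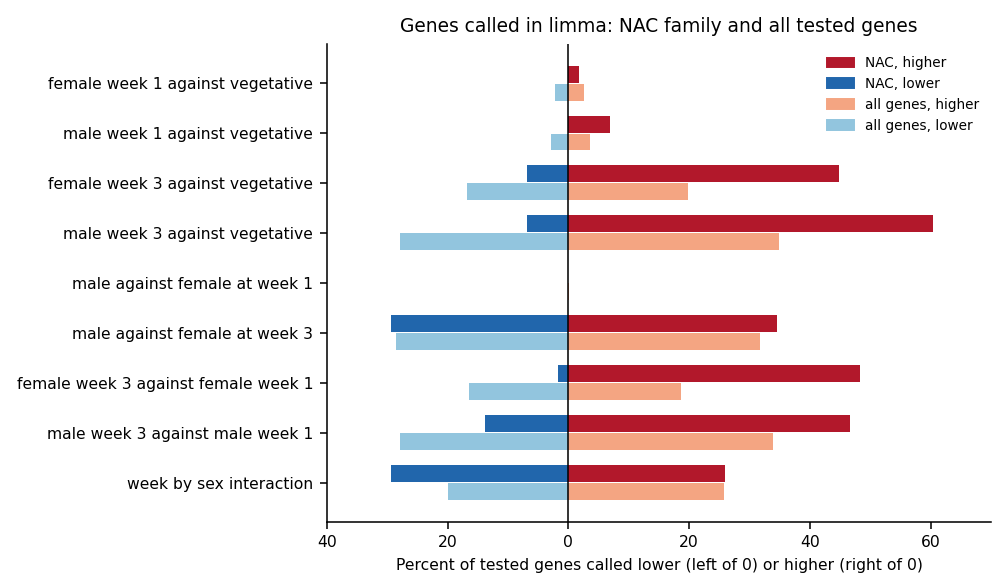
Percent of tested genes called higher (right of 0) or lower (left of 0) by limma at an adjusted p under 0.05 in each comparison, for the 58 NAC genes (dark bars) and all 18309 genes tested (pale bars). Against vegetative apices at week 3 the NAC share of rises (44.8% female, 60.3% male) exceeds that of all genes (19.8% and 34.8%), whereas male against female at week 3 gives shares near the background.

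**Figure D2:**
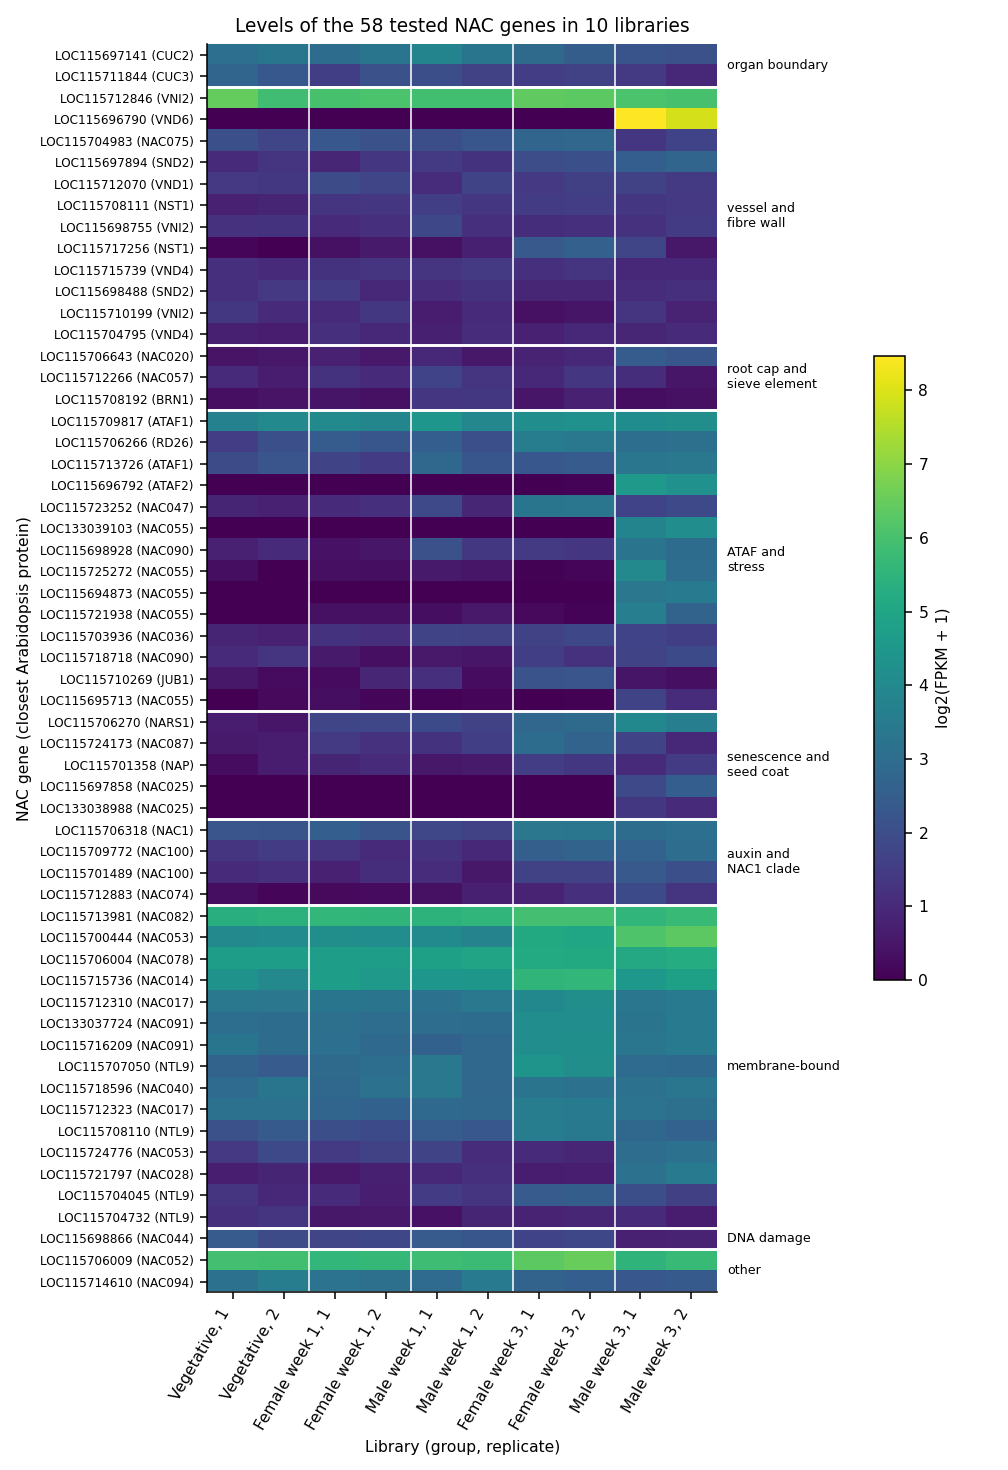
Level of each of the 58 tested NAC genes (rows, with the closest Arabidopsis protein, grouped by its role) in the 10 libraries (columns, group and replicate), as log2(FPKM + 1). One block of genes is dark in 8 libraries and bright in the male week 3 pair, with LOC115696790 the brightest, and most membrane-bound members are brightest in female week 3.

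Over 3 comparisons, which share the male week 3 libraries, 19 NAC genes were higher there than in vegetative, male week 1 and female week 3 apices (32.8% of the 58, background 25.2%). Those of the 19 with a mean under 1 FPKM in every other group entered the test only through male week 3. They could not be lower there, so the level filter set this share in part. Among them were LOC115694873, LOC115695713, LOC115696790, LOC115696792, LOC115697858, LOC115706643, LOC115721938, LOC115725272, LOC133038988 and LOC133039103. The highest was LOC115696790, described as NAC domain-containing protein 101-like and closest to VND6, a switch of vessel formation in Arabidopsis, at an identity of only 34.0%. It was listed at 0 in all 8 other libraries and stood at 353 and 242 FPKM in male week 3, the highest level of any NAC gene in any library. No fold can be given against groups at 0, and the adjusted p of limma against female week 3 was 4.34e-10. Groups at 0 add no spread to the fit, so this p rests on the male week 3 pair, with its spread averaged over all groups. It may be too small, as may the p-values of the other genes below that were at or near 0 outside male week 3. LOC115696792, described as NAC transcription factor 29-like and closest to ATAF2 at 30.7% identity, lay within the same stretch of chromosome 7, which runs from base 60696885 to 60890012 of ASM2916894v1 and holds 16 protein-coding genes. It was listed at 0 in 7 libraries, stood at 0.0574 FPKM in female week 3 replicate 2 and reached 22.7 and 18.4 in male week 3 (male against female at week 3, adjusted p = 6.86e-09). Both genes thus separated the male week 3 pair from every other library.

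A further set resembled NAC055, a stress and jasmonate-responsive factor of Arabidopsis, at under 40% identity and lay mostly on chromosome 6. LOC133039103, described as JA2-like, and LOC115694873, described as NAC domain-containing protein 19-like, lay together between bases 4973641 and 4984613. Both were listed at 0 in the 8 libraries outside male week 3, where LOC133039103 stood at 13.1 and 16.8 FPKM and LOC115694873 at 9.36 and 10.3 (adjusted p against female week 3, 1.55e-08 and 1.78e-08). They share the same identity to NAC055, 34.2%, but were not compared with each other. How reads were shared between such neighbours is not known, so their separate levels are uncertain. LOC115725272, also on chromosome 6, stood at 0 to 0.528 FPKM outside male week 3 and at 14.9 and 7.16 in it (3.42 ± 0.27, adjusted p = 2.59e-06 against female week 3). LOC115721938 on chromosome 9 followed the same course, with 0 to 0.497 FPKM outside and 11.3 and 5.42 within male week 3 (3.02 ± 0.26, adjusted p = 5.23e-06). LOC115695713, on chromosome 6, was lower, at 0 to 0.242 FPKM outside and 2.35 and 1.13 within (1.39 ± 0.21, adjusted p = 0.000272). In all 5 the lower male week 3 library lay above the highest of the other 8.

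Among members closest to senescence and seed coat factors, 5 of 5 tested genes rose in male week 3 against vegetative apices (background 34.8%). Of these, LOC115697858 and LOC133038988 entered the test only through their male week 3 levels and could not fall there. Their rises were set by the level filter, so the count does not describe the role. The smallest rise, of LOC115724173 (0.72 ± 0.25, adjusted p = 0.0286), did not pass when any 1 of 3 libraries was left out, at adjusted p-values of 0.102 without replicate 1 of vegetative, 0.0812 without replicate 2 of vegetative and 0.221 without replicate 1 of male week 3. LOC115697858 and LOC133038988, closest to NAC025, were listed at 0 in the 8 other libraries and stood at 2.69 and 4.81 and at 1.56 and 1.01 FPKM in male week 3 (adjusted p against female week 3, 6.91e-06 and 9.18e-05). LOC115706270, described as NAC transcription factor 56 and closest to NARS1, which with NARS2 acts in Arabidopsis seed coats, instead climbed at each stage. It stood at 0.585 and 0.432 FPKM in the vegetative, 2.42 and 2.46 in the week 1 female and 2.75 and 2.15 in the week 1 male pair. The week 3 female pair gave 5.92 and 6.61 and the male pair 14.4 and 11.4. The vegetative, week 1 and week 3 libraries did not overlap, and male exceeded female at week 3. The rise over vegetative apices was 1.19 ± 0.17, adjusted p = 0.00463 in female week 1, 1.19 ± 0.17, adjusted p = 0.00287 in male week 1, 2.27 ± 0.17, adjusted p = 1.06e-05 in female week 3 and 3.20 ± 0.17, adjusted p = 1.22e-07 in male week 3. The male excess at week 3 was 0.93 ± 0.17, adjusted p = 0.000851.

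Several male week 3 genes were not silent elsewhere. LOC115700444, described as NAC domain-containing protein 89 and closest to NAC053 at 29.3% identity, stood at 14.9 and 15.8 FPKM in the vegetative, 17 and 16.8 in the week 1 female and 15.4 and 12.7 in the week 1 male pair. By week 3 it stood at 34.5 and 30.3 in female and 69.9 and 80.6 in male apices. Both week 3 groups lay above the 6 earlier libraries and male above female, with rises over vegetative apices of 1.03 ± 0.13, adjusted p = 0.000309 in female and 2.22 ± 0.13, adjusted p = 3.08e-07 in male week 3. LOC115721797, closest to NAC028, stood at 0.508 to 1.23 FPKM in the other 8 libraries and 8.06 and 10.6 in male week 3 (2.67 ± 0.17, adjusted p = 6.15e-07 against female week 3). LOC115724776, closest to NAC053, whose Arabidopsis form acts with NAC078 in the response to proteasome stress, stood at 1.63 and 2.69 FPKM in the vegetative, 1.7 and 2.22 in the week 1 female and 2.33 and 1.12 in the week 1 male pair. Week 3 levels came to 0.995 and 0.859 in female and 7.19 and 7.94 in male apices. Male week 3 lay above and female week 3 below every other group. The male excess was 2.15 ± 0.24, adjusted p = 3.29e-05, and the fall in female week 3 against vegetative apices was -0.69 ± 0.24, adjusted p = 0.0471, which did not pass with 1 library left out, at adjusted p-values of 0.282 without replicate 2 of vegetative, 0.129 without replicate 1 of female week 3 and 0.185 without replicate 2 of female week 3. LOC115706643, closest to the phloem factor NAC020, stood at 0.348 to 0.939 FPKM outside and 4.55 and 3.79 in male week 3 (1.49 ± 0.18, adjusted p = 5.54e-05).

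**Figure D3:**
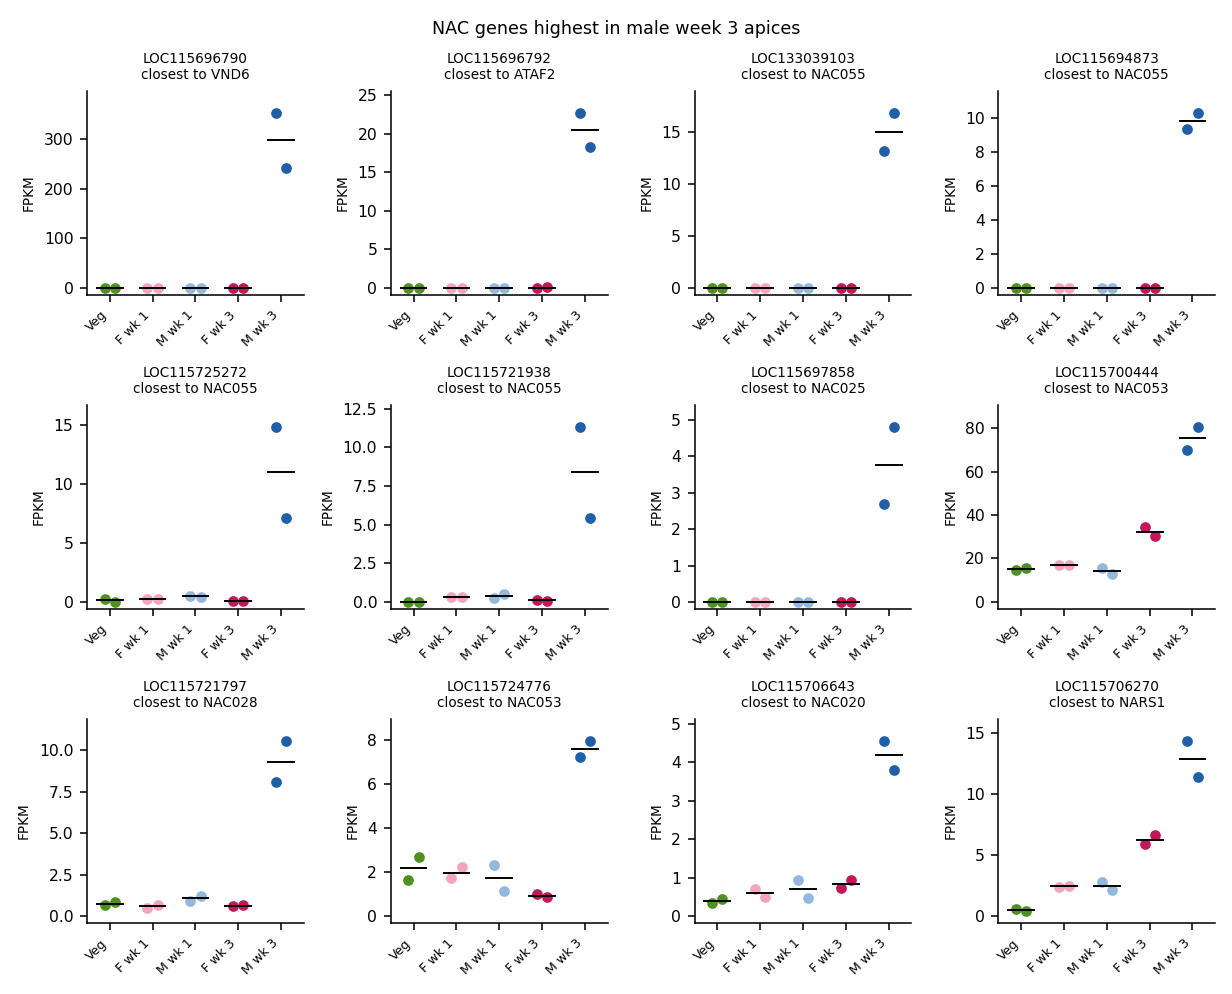
FPKM of 12 NAC genes in each library (points) and group means (bars) for vegetative (Veg), female (F) and male (M) apices at weeks (wk) 1 and 3; each panel has its own axis. The male week 3 points lie above all others in every panel, and the 7 genes from LOC115696790 to LOC115697858 stay between 0 and 0.528 FPKM in the other 8 libraries.

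Of the 2 NAC genes closest to ATAF1 and the 2 closest to NAC090, 1 of each also belonged to the 19, at lower contrast. LOC115713726, closest to ATAF1, an abscisic acid and stress responsive factor, stood at 2.93 and 3.67 FPKM in the vegetative, 2.32 and 1.86 in the week 1 female and 6.19 and 3.85 in the week 1 male pair. In week 3 apices 3.97 and 4.43 FPKM were found in female and 8.98 and 9.43 in male libraries. LOC115698928, closest to NAC090, stood at 0.72 and 0.993 FPKM in the vegetative, 0.337 and 0.436 in the week 1 female and 3.27 and 1.56 in the week 1 male pair. Female apices of week 3 gave 1.74 and 1.55 and male ones 8.47 and 7.03. In both, the male week 3 pair was the highest and male week 1 replicate 1 stood above its partner. Their male excess at week 3 was 0.97 ± 0.20, adjusted p = 0.00194 for LOC115713726 and 1.72 ± 0.23, adjusted p = 0.000118 for LOC115698928. The remaining 3 of the 19, LOC115697894, LOC115701489 and LOC115712883, lost their call against female week 3 with 1 library left out, and their values stand with their roles below.

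Other NAC genes were highest in female week 3 apices. Over the whole family, 15 of the 58 were higher there than in vegetative, female week 1 and male week 3 apices (25.9%, background 8.79%). Among them, LOC115710269 had a mean under 1 FPKM in every other group, so it entered the test only through female week 3. Of the 15 tested members closest to membrane-bound factors, 11 rose in female week 3 against vegetative apices (background 19.8%) and 11 against female week 1 (background 18.7%). In male against female week 3, 9 of the 15 were lower (background 28.6%) and 3 higher (background 31.7%). Carpel and ovule markers were also high in the female week 3 libraries. Of 6 tested, 4 were higher there than in vegetative (background 19.8%) and female week 1 apices (background 18.7%), with none lower. In male against female week 3 4 were lower (background 28.6%) and 2 higher (background 31.7%). The CRC match, a factor of carpel development, stood at 22.8 and 18.6 FPKM in female week 3 and 0.305 to 6.97 in the other libraries, and the closer of the tested STK matches, an ovule identity gene, at 83.8 and 69.8 and 0.513 to 10.2. The 7 genes of the list summed to 146 and 125 FPKM in female week 3, 16.7 to 46.0 in the vegetative and week 1 libraries, and 311 and 279 in male week 3. In the latter a single gene, described as floral homeotic protein AGAMOUS, stood at 286 and 254.5 FPKM. No marker of the list was at 0 in every library, and the part of carpel and ovule cells in the NAC results was not tested. In a run on chromosome 1 between bases 23138082 and 23276972, 4 of 5 NAC genes were closest to NTL9, a membrane-bound factor of osmotic stress and guard cell immunity in Arabidopsis. LOC115707050 stood at 5.51 and 4.38 FPKM in the vegetative, 6.62 and 7.34 in the week 1 female and 9.55 and 6.1 in the week 1 male pair. Its week 3 values were 19.7 and 17.1 in the female and 6.8 and 6.44 in the male pair. LOC115708110 stood at 3.32 and 4.22 FPKM in the vegetative, 3.06 and 2.72 in the week 1 female and 4.52 and 3.93 in the week 1 male pair. At week 3 the values were 10.8 and 9.67 in female and 6.34 and 5.31 in male apices. Both female week 3 values exceeded all others for both genes. LOC115707050 rose by 1.71 ± 0.19, adjusted p = 0.000145 against vegetative apices and was -1.35 ± 0.19, adjusted p = 0.000185 in male against female week 3; for LOC115708110 the same differences were 1.24 ± 0.16, adjusted p = 0.000316 and -0.72 ± 0.16, adjusted p = 0.00306. A further one, LOC115704045, stood at 4.41 and 4.59 FPKM in female week 3 and 0.652 to 3.1 in the other libraries. Its rise from female week 1 was 1.59 ± 0.20, adjusted p = 0.000338, but its male against female difference of -0.64 ± 0.20, adjusted p = 0.0203 had adjusted p-values of 0.0701 without replicate 1 of female week 3, 0.0879 without replicate 2 of female week 3 and 0.134 without replicate 2 of male week 3. The last one, LOC115704732, stood at 0.327 to 1.4 FPKM over the 10 libraries and was called in no comparison by limma. Its vegetative values, 1.22 and 1.4, lay above the other 8, of which the highest was 1.02. The authors' deposited table had it lower in female week 1 than in vegetative apices, with a log2 fold change of -1.46 and an adjusted p of 0.0348. Without male week 1 replicate 2, limma called it lower in male week 1 than in vegetative apices (-0.80, adjusted p = 0.0446).

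LOC115715736, closest to NAC014, stood at 18.8 and 14.7 FPKM in the vegetative, 25.1 and 23 in the week 1 female and 20.8 and 21.2 in the week 1 male pair. The week 3 female pair gave 45.5 and 48 and the male pair 21.9 and 26.9. The female week 3 pair stood well above the rest (1.44 ± 0.14, adjusted p = 7.54e-05 against vegetative apices and -0.92 ± 0.14, adjusted p = 0.000367 in male against female week 3). LOC133037724 and LOC115716209, closest to NAC091, a factor first met as a partner of a viral coat protein, moved alike. LOC133037724 stood at 16.9 and 16.7 FPKM in female week 3 and 7.01 to 10.4 elsewhere, and LOC115716209 at 16.7 and 17.7 and 5.25 to 10. Male against female week 3 gave -0.77 ± 0.13, adjusted p = 0.00054 for the former and -0.80 ± 0.15, adjusted p = 0.00117 for the latter. The 2 tested members closest to NAC017, a regulator of the response to failing mitochondria, lie on chromosome X between bases 622964 and 644281, a stretch that holds 3 protein-coding genes. They have the same identity to NAC017, 43.0%, but were not compared with each other. How reads were shared between such neighbours is not known, so their separate levels are uncertain. LOC115712310 stood at 14.5 and 17.1 FPKM in female week 3 and 8.16 to 9.91 elsewhere (0.70 ± 0.13, adjusted p = 0.00276 against vegetative). LOC115712323 stood at 10.7 and 10.4 and 5.23 to 8.26 FPKM and rose from female week 1 by 0.84 ± 0.12, adjusted p = 0.000697. Its rise over vegetative apices was less stable. With 1 of the 4 compared libraries left out it was 0.33 to 0.37 and was lost each time. Its difference between male and female week 3 was lost in 3 of the 4 such fits. LOC115713981, closest to NAC082, a factor of the response to ribosomal stress, stood at 59.8 and 60.6 FPKM in female week 3 and 38.5 to 51.4 elsewhere. It rose against vegetative apices (0.56 ± 0.11, adjusted p = 0.00298), while its difference between male and female week 3 (-0.29 ± 0.11, adjusted p = 0.042) had adjusted p-values of 0.13 without replicate 1 of female week 3, 0.157 without replicate 2 of female week 3 and 0.145 without replicate 1 of male week 3.

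Beyond the membrane-bound group, the sharpest female week 3 genes were closest to factors of stress, ageing and wall formation. LOC115723252, closest to NAC047, stood at 0.831 and 0.731 FPKM in the vegetative, 1.02 and 1.24 in the week 1 female and 2.66 and 0.872 in the week 1 male pair. By week 3 it stood at 8.86 and 8.99 in female and 2.29 and 2.69 in male apices. It rose by 2.48 ± 0.26, adjusted p = 0.000109 against vegetative apices and was -1.51 ± 0.26, adjusted p = 0.000733 in male against female week 3. LOC115724173, which lies in the same stretch of chromosome 9 and is closest to NAC087, a factor of programmed cell death in the Arabidopsis root cap, stood at 0.531 and 0.593 FPKM in the vegetative, 1.71 and 1.33 in the week 1 female and 1.35 and 1.98 in the week 1 male pair. Week 3 levels came to 7.05 and 5.54 in female and 2.37 and 0.974 in male apices. It rose in female week 3 against vegetative apices (2.22 ± 0.25, adjusted p = 0.000149) and was lower in male than in female week 3 (-1.49 ± 0.25, adjusted p = 0.000548). LOC115710269, described as JUNGBRUNNEN 1, a factor that delays ageing in Arabidopsis, stood at 0.476 and 0.2 FPKM in the vegetative, 0.181 and 0.878 in the week 1 female and 1.23 and 0.21 in the week 1 male pair. In week 3 apices 3.49 and 3.72 FPKM were found in female and 0.398 and 0.267 in male libraries. The female week 3 pair stood clear of the other 8 libraries in all 3 genes, and for LOC115710269 the difference from male week 3 was -1.79 ± 0.30, adjusted p = 0.000499. LOC115706009, described as NAC domain containing protein 50 and closest to NAC052, which in Arabidopsis works with a histone demethylase, was abundant throughout. It stood at 59.8 and 59.1 FPKM in the vegetative, 47.7 and 48.9 in the week 1 female and 56.4 and 53.8 in the week 1 male pair. Female apices of week 3 gave 79.2 and 88.9 and male ones 44.7 and 52.4. The female week 3 pair was the highest, by 0.78 ± 0.12, adjusted p = 0.000763 over female week 1 and with -0.78 ± 0.12, adjusted p = 0.000241 in male against female week 3. Its rise over vegetative apices, 0.49 ± 0.12, adjusted p = 0.00871, had an adjusted p of 0.0876 without replicate 2 of female week 3.

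**Figure D4:**
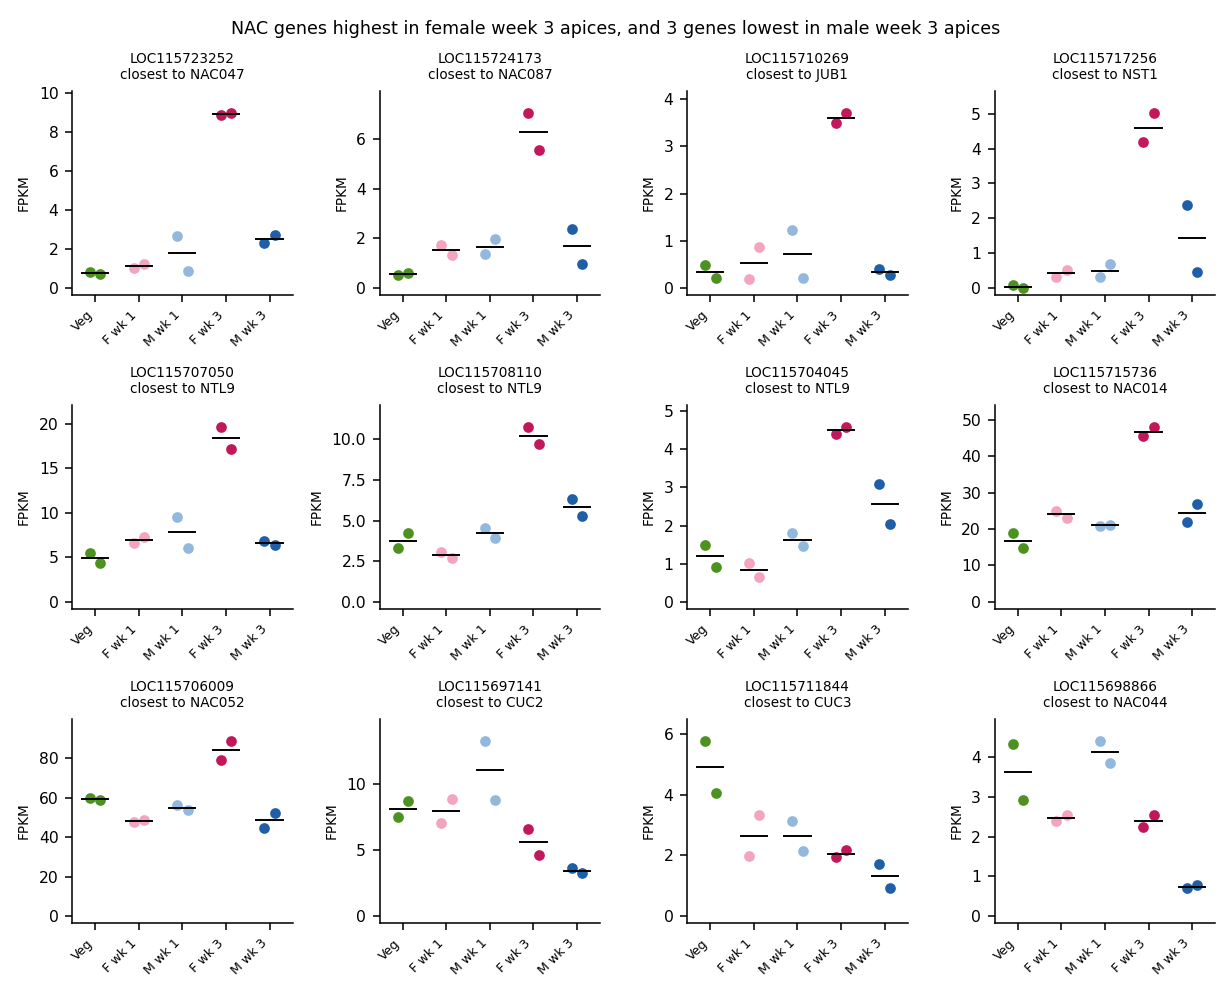
FPKM of 9 NAC genes highest in female week 3 and of 3 genes lowest in male week 3 (LOC115697141, LOC115711844 and LOC115698866) in each library (points) with group means (bars), for vegetative (Veg), female (F) and male (M) apices at weeks (wk) 1 and 3; each panel has its own axis. The 9 female week 3 pairs lie above every other library, and in the last 3 panels the male week 3 pair lies below every other library.

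The 4 NAC genes that fell in male week 3 against vegetative apices included both tested organ boundary genes. In Arabidopsis the CUC genes keep neighbouring organs apart and help to form the shoot meristem. LOC115697141, the CUC2 match at 51.2% identity, stood at 7.49 and 8.73 FPKM in the vegetative, 7.05 and 8.83 in the week 1 female and 13.2 and 8.78 in the week 1 male pair. Its week 3 values were 6.6 and 4.62 in the female and 3.59 and 3.28 in the male pair. The male week 3 pair was the lowest and male week 1 replicate 1 the highest. It fell in male week 3, with differences of -1.04 ± 0.21, adjusted p = 0.00197 against vegetative apices and -1.41 ± 0.21, adjusted p = 0.000276 against male week 1. Against female week 3 the difference was -0.56 ± 0.21, adjusted p = 0.0454, with adjusted p-values of 0.294 without replicate 1 of female week 3, 0.107 without replicate 1 of male week 3 and 0.164 without replicate 2 of male week 3, and it was also not called with the replicate block, with scaling between libraries or without the filter on low values. LOC115711844, the CUC3 match at 62.4% identity, stood at 5.77 and 4.05 FPKM in the vegetative, 1.99 and 3.31 in the week 1 female and 3.13 and 2.15 in the week 1 male pair. At week 3 the values were 1.94 and 2.17 in female and 1.71 and 0.909 in male apices. The vegetative pair was the highest, the male week 3 pair the lowest, and the 3 groups between them overlapped. It fell in male week 3 against vegetative apices (-1.36 ± 0.25, adjusted p = 0.000999). Its falls in female week 3 against vegetative apices (-0.94 ± 0.25, adjusted p = 0.0163) and from male week 1 to week 3 (-0.67 ± 0.25, adjusted p = 0.0427) were each lost with a library left out, at adjusted p-values of 0.11 without replicate 1 of vegetative, 0.0919 without replicate 1 of female week 3 and 0.0638 without replicate 2 of female week 3 for the former and 0.194 without replicate 1 of male week 1 and 0.266 without replicate 2 of male week 3 for the latter. LOC115712883 is also described as CUP-SHAPED COTYLEDON 3, but its closest Arabidopsis protein was NAC074 at 74.0% identity, and it moved the other way. It stood at 0.246 and 0.11 FPKM in the vegetative, 0.149 and 0.193 in the week 1 female and 0.305 and 0.692 in the week 1 male pair. The week 3 female pair gave 0.811 and 1.21 and the male pair 2.74 and 1.43. It rose in male week 3 against vegetative apices (1.36 ± 0.22, adjusted p = 0.000474). Its excess over female week 3, 0.59 ± 0.22, adjusted p = 0.0436, had adjusted p-values of 0.223 without replicate 1 of female week 3, 0.0592 without replicate 2 of female week 3 and 0.27 without replicate 1 of male week 3.

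Genes known to work beside CUC factors at organ boundaries and in the meristem, such as STM, KNAT1, LAS and BOP2, gave 9 tested cannabis genes. In male against female week 3, 6 were lower (background 28.6%), 2 higher (background 31.7%) and 1 not called. In male week 1 against vegetative apices 4 were higher (background 3.54%) and none lower (background 2.86%). In male week 3 against vegetative apices 2 were higher (background 34.8%) and 1 lower (background 27.9%). The match to KNAT1, a homeobox gene of the meristem, stood at 11.5 and 13.8 FPKM in female and 3.90 and 4.27 in male week 3 libraries. In the vegetative pair it stood at 4.90 and 4.25. The match to LAS, a GRAS factor of axillary meristems, stood at 1.38 and 1.22 in female and 0.333 and 0.125 in male week 3. The 2 higher genes were LOC115708735, a KNAT6 match, and LOC115701537, the LOF2 match. LOC115708735 stood at 1.57 and 1.86 in female and 4.06 and 3.20 in male week 3. For LOC115701537 these were 2.97 and 2.89 and 7.04 and 6.76. Of 5 tested shoot meristem markers, 3 of which are among these 9 genes, 4 were lower in male than in female week 3 (background 28.6%). The other 1, the WUS match, was higher (background 31.7%). The part of meristem and pollen cells in these differences was not tested.

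Among vessel and fibre wall members, 12 of 16 were tested, and besides LOC115696790 they moved less. Of the 12, 4 rose (background 19.8%) and 1 fell (background 16.8%) in female week 3 against vegetative apices. In male week 3 against vegetative apices 4 of 12 rose, a share near the background of 34.8%, and none fell (background 27.9%). These 4 include LOC115696790, which entered the test only through male week 3. LOC115717256, described as NAC domain-containing protein 12 and closest to NST1, a master switch of fibre walls and of the anther wall layer that opens the anther, stood at 0.0764 and 0 FPKM in the vegetative, 0.309 and 0.524 in the week 1 female and 0.315 and 0.671 in the week 1 male pair. By week 3 it stood at 4.18 and 5.03 in female and 2.38 and 0.47 in male apices. The female week 3 pair was the highest, and the male week 3 libraries differed widely from each other. It rose in female week 3 (2.43 ± 0.32, adjusted p = 0.000387) and was lower in male week 3 than there (-1.33 ± 0.32, adjusted p = 0.00533). Its male week 3 difference from vegetative apices, 1.10 ± 0.32, adjusted p = 0.0133, had adjusted p-values of 0.0649 without replicate 2 of vegetative and 0.0628 without replicate 1 of male week 3. LOC115708111, also closest to NST1, stood at 0.7 and 0.822 FPKM in the vegetative, 1.45 and 1.53 in the week 1 female and 1.97 and 1.5 in the week 1 male pair. Week 3 levels came to 1.76 and 1.91 in female and 1.51 and 1.65 in male apices. The vegetative pair was the lowest. It rose in female week 3 (0.69 ± 0.15, adjusted p = 0.00587) and male week 3 (0.55 ± 0.15, adjusted p = 0.00887).

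LOC115704983, closest to NAC075, which acts upstream of vessel formation, stood at 3.21 and 2.38 FPKM in the vegetative, 3.92 and 3.26 in the week 1 female and 3.14 and 3.86 in the week 1 male pair. In week 3 apices 5.71 and 5.92 FPKM were found in female and 1.53 and 2.23 in male libraries. It was highest in female and lowest in male week 3, with -1.25 ± 0.19, adjusted p = 0.000236 in male against female week 3 and 0.85 ± 0.19, adjusted p = 0.00577 in female week 3 against vegetative apices. LOC115697894, closest to SND2, a second-tier factor of cellulose-rich walls, stood at 1.06 and 1.42 FPKM in the vegetative, 0.859 and 1.53 in the week 1 female and 1.68 and 1.37 in the week 1 male pair. Female apices of week 3 gave 3.03 and 3.19 and male ones 4.81 and 5.71. It rose in female week 3 (0.88 ± 0.19, adjusted p = 0.00535) and male week 3 (1.48 ± 0.19, adjusted p = 7.84e-05) against vegetative apices, with no overlap between the week 3 and the earlier libraries. Its male excess at week 3, 0.60 ± 0.19, adjusted p = 0.0185, had adjusted p-values of 0.0862 without replicate 1 of female week 3, 0.0645 without replicate 2 of female week 3 and 0.0945 without replicate 2 of male week 3. A second SND2 match, LOC115698488, stood at 0.869 to 1.77 FPKM over the 10 libraries and was called in no comparison by limma.

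Of the remaining 6 tested vessel members, 4 were called in no comparison by limma. LOC115712846, closest to VNI2, a repressor that binds VND7 in Arabidopsis, was among the most abundant NAC genes. It stood at 88 and 57 FPKM in the vegetative, 62.6 and 65.5 in the week 1 female and 58.8 and 58.7 in the week 1 male pair. Its week 3 values were 83.9 and 80.4 in the female and 66.2 and 63.7 in the male pair. Limma called it in no comparison, and vegetative replicate 1 was its highest value. The authors' deposited table had it higher in female week 3 than in female week 1, with a log2 fold change of 0.32 and an adjusted p of 0.0204. LOC115710199, another VNI2 match, stood at 1.6 and 1.07 FPKM in the vegetative, 1.06 and 1.58 in the week 1 female and 0.59 and 1 in the week 1 male pair. At week 3 the values were 0.314 and 0.39 in female and 1.48 and 0.745 in male apices. The female week 3 pair was the lowest. Its 4 calls were all lost with 1 library left out, and its fall in female week 3 against vegetative apices (-0.78 ± 0.22, adjusted p = 0.0202) had adjusted p-values of 0.126 without replicate 1 of vegetative, 0.105 without replicate 1 of female week 3 and 0.0763 without replicate 2 of female week 3. LOC115698755, one more VNI2 match, stood at 1 to 2.59 FPKM, LOC115712070, closest to VND1, at 1.13 to 2.8, and LOC115704795, closest to VND4, at 0.594 to 1.23, and limma called none of these. LOC115715739, also closest to VND4, stood at 1.24 and 1.06 FPKM in the vegetative, 1.35 and 1.4 in the week 1 female and 1.47 and 1.7 in the week 1 male pair. The week 3 female pair gave 1.27 and 1.41 and the male pair 0.937 and 0.967. Its fall from male week 1 to week 3 (-0.40 ± 0.14, adjusted p = 0.0313) had adjusted p-values of 0.0533 without replicate 1 of male week 1, 0.148 without replicate 2 of male week 1 and 0.0544 without replicate 1 of male week 3. The 4 untested members, a VND7 match, 2 XND1 matches and one more NST1 match, reached at most 1.09 FPKM in any library.

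Genes that work with such switches in Arabidopsis, among them cellulose synthases of secondary walls, laccases and MYB factors, gave 22 tested cannabis genes. In female week 3 against vegetative apices none was higher (background 19.8%) and 3 lower (background 16.8%). In male week 3 against vegetative apices 4 were higher (background 34.8%) and 8 lower (background 27.9%). Male against female week 3 gave 4 higher (background 31.7%) and 1 lower (background 28.6%). The match to MYB26, which acts on the wall of the anther layer that opens the anther, stood at 0.341 to 0.786 FPKM in 8 libraries and 8.08 and 7.78 in male week 3. The 3 matches to CESA4 and CESA8, secondary wall cellulose synthases, were the other 3 higher genes. Xylem markers gave 3 higher of 7 in male against female week 3 (background 31.7%), and these are the same cellulose synthase genes.

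The 4 tested members of the auxin and NAC1 clade were each called higher in male week 3 than in vegetative apices (background 34.8%). Each was also called higher at week 3 than at week 1 in female (background 18.7%) and male apices (background 33.8%). For 2 of the 4 the call between the weeks in female apices was lost with a library left out. For one of them, LOC115712883 (0.77 ± 0.22, adjusted p = 0.0239), it was lost with any of the 4 libraries left out, at adjusted p-values of 0.0528 to 0.155. LOC115706318, closest to NAC1, an auxin-responsive factor of lateral roots, stood at 3.7 and 3.55 FPKM in the vegetative, 4.81 and 3.59 in the week 1 female and 2.5 and 2.14 in the week 1 male pair. By week 3 it stood at 9.24 and 9.01 in female and 7.05 and 7.56 in male apices. LOC115709772, closest to NAC100, stood at 1.48 and 1.8 FPKM in the vegetative, 1.45 and 1.05 in the week 1 female and 1.34 and 0.945 in the week 1 male pair. Week 3 levels came to 4.91 and 5.5 in female and 5.29 and 7.22 in male apices. All 4 week 3 libraries exceeded the 6 earlier ones for both genes. LOC115706318 rose by 0.97 ± 0.15, adjusted p = 0.00114 between the weeks in female and 1.32 ± 0.15, adjusted p = 4.39e-05 in male apices, and LOC115709772 by 1.47 ± 0.19, adjusted p = 0.000362 and 1.75 ± 0.19, adjusted p = 2.51e-05. LOC115701489, a second NAC100 match, stood at 0.999 and 1.21 FPKM in the vegetative, 0.703 and 1.15 in the week 1 female and 1.12 and 0.459 in the week 1 male pair. In week 3 apices 2.15 and 2.17 FPKM were found in female and 4.16 and 3.21 in male libraries. It rose in male week 3 (1.15 ± 0.21, adjusted p = 0.000948 against vegetative apices). Its rise from female week 1 to week 3 (0.72 ± 0.21, adjusted p = 0.0245) had adjusted p-values of 0.168 without replicate 1 of female week 1, 0.103 without replicate 1 of female week 3 and 0.105 without replicate 2 of female week 3, and its excess over female week 3, 0.56 ± 0.21, adjusted p = 0.0424, had adjusted p-values of 0.132 without replicate 1 of female week 3, 0.126 without replicate 2 of female week 3 and 0.202 without replicate 1 of male week 3.

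For members closest to stress factors, the level filter set the week 3 counts in part. Of 14 tested members closest to ATAF, NAC055, RD26 and related factors, 4 rose in female (background 19.8%) and 12 in male week 3 (background 34.8%) against vegetative apices, and none fell in either. The male rises include LOC115694873, LOC115695713, LOC115696792, LOC115721938, LOC115725272 and LOC133039103. These were under 1 FPKM in every other group, so they entered the test only through male week 3 and could not fall there. The male count therefore does not describe the role. The female rises include LOC115710269, which had a mean under 1 FPKM in every other group. It entered the test only through female week 3 and could not fall there. LOC115706266, closest to RD26, a dehydration-responsive factor, stood at 1.89 and 3.16 FPKM in the vegetative, 4.51 and 3.8 in the week 1 female and 4.74 and 3.22 in the week 1 male pair. Female apices of week 3 gave 10.8 and 9.4 and male ones 7.32 and 7.76. It rose in female (1.67 ± 0.21, adjusted p = 0.000275) and male week 3 (1.30 ± 0.21, adjusted p = 0.000407). LOC115709817, the closest match to ATAF1 at 74.2%, stood at 12.2 to 20.8 FPKM over all libraries and was called in no comparison by limma. LOC115701358, closest to NAP, which drives leaf senescence in Arabidopsis, stood at 0.212 and 0.564 FPKM in the vegetative, 0.828 and 1.05 in the week 1 female and 0.456 and 0.517 in the week 1 male pair. Its week 3 values were 1.92 and 1.62 in the female and 1.05 and 1.76 in the male pair. It rose in female (1.00 ± 0.19, adjusted p = 0.003) and male week 3 (0.79 ± 0.19, adjusted p = 0.00508) against vegetative apices. Targets and executors of senescence gave 9 tested genes. Against vegetative apices, 3 rose (background 19.8%) and 1 fell (background 16.8%) in female week 3. In male week 3, 4 rose (background 34.8%) and 2 fell (background 27.9%). The match to BFN1, a nuclease of dying cells, stood at 2.28 to 5.01 FPKM in the 8 other libraries and 13.0 and 17.1 in male week 3. Other genes of the list went the other way. The NYC1 match stood at 39.9 and 42.9 FPKM in the vegetative and 12.4 and 17.5 in the male week 3 pair. For LOC115723236, an SGR1 match, these were 24.0 and 29.3 and 13.3 and 9.90.

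LOC115698866 is described as SUPPRESSOR OF GAMMA RESPONSE 1, the factor that answers DNA damage in Arabidopsis, with NAC044, which arrests the cell cycle downstream of it, as its closest match. It stood at 4.35 and 2.93 FPKM in the vegetative, 2.39 and 2.55 in the week 1 female and 4.41 and 3.86 in the week 1 male pair. At week 3 the values were 2.25 and 2.56 in female and 0.696 and 0.773 in male apices. The male week 3 pair lay below all 8 other libraries, by -0.97 ± 0.18, adjusted p = 0.00092 against female week 3, -1.56 ± 0.18, adjusted p = 3.51e-05 against male week 1 and -1.40 ± 0.18, adjusted p = 7.46e-05 against vegetative apices. With CUC2 it was 1 of the 2 NAC genes called lower in male week 3 than in each of these 3 groups (3.45% of the 58, background 15.1%). LOC115714610, closest to NAC094, stood at 7.98 and 10.7 FPKM in the vegetative, 8.41 and 7.64 in the week 1 female and 6.71 and 10.2 in the week 1 male pair. The week 3 female pair gave 5.51 and 4.82 and the male pair 3.91 and 4.27. The male week 3 pair was the lowest and female week 3 the next lowest. It was lower in male week 3 than in vegetative apices (-1.01 ± 0.20, adjusted p = 0.00141). Its difference in female week 3, -0.74 ± 0.20, adjusted p = 0.0163, had adjusted p-values of 0.126 without replicate 2 of vegetative, 0.0533 without replicate 1 of female week 3 and 0.105 without replicate 2 of female week 3.

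At week 1 little of this was visible. In female week 1 against vegetative apices 1 NAC gene was called higher (1.72%, background 2.67%), the NARS1 match LOC115706270 given above, and none lower (background 2.27%). With a pseudocount of 0.1 FPKM the count was 4. In male week 1 against vegetative apices 4 were called higher (6.90%, background 3.54%) and none lower (background 2.86%). These were LOC115706270, LOC115708192, LOC115703936 and LOC115708111. With male week 1 replicate 2 left out 10 were called, and in a fit of the compared groups alone none was. LOC115708192, whose description names no product and which is closest to the root cap factor BRN1 at 37.0% identity, stood at 0.264 and 0.365 FPKM in the vegetative, 0.407 and 0.292 in the week 1 female and 1.55 and 1.57 in the week 1 male pair. By week 3 it stood at 0.432 and 0.701 in female and 0.254 and 0.313 in male apices. The male week 1 pair was the highest, above vegetative apices by 0.96 ± 0.15, adjusted p = 0.00469 and above male week 3, with -1.0 ± 0.15, adjusted p = 0.000249. LOC115703936, closest to NAC036, stood at 0.838 and 0.703 FPKM in the vegetative, 1.38 and 1.18 in the week 1 female and 2.33 and 2.15 in the week 1 male pair. Week 3 levels came to 2.12 and 2.58 in female and 2.28 and 1.94 in male apices. Its male week 1 excess (0.87 ± 0.15, adjusted p = 0.00864) had an adjusted p of 0.0624 without replicate 2 of vegetative, and that of LOC115708111 (0.63 ± 0.15, adjusted p = 0.0372) of 0.156 without replicate 1 of vegetative, 0.109 without replicate 2 of vegetative and 0.168 without replicate 1 of male week 1.

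Between the sexes at week 1, limma called none of the 58 NAC genes (background 0.137%), while 8 had an unadjusted p under 0.05. The median absolute difference was 0.13 at week 1 and 0.66 at week 3. With male week 1 replicate 2 left out, LOC115713726 (log2 difference 1.22, adjusted p = 0.0339) and LOC115698928 (1.62, adjusted p = 0.0125) were called. The authors' deposited table had LOC115708192 as the only one of the 58 to differ at this stage (background 0.295%), with a log2 fold change of 2.17 and an adjusted p of 0.00113. For the same gene limma gave 0.93 ± 0.15, adjusted p = 0.0717.

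The change of the sex difference from week 1 to week 3 was tested as an interaction, and 32 NAC genes passed (55.2%, background 45.6%), 15 with a difference moving towards male (25.9%, background 25.8%) and 17 towards female apices (29.3%, background 19.9%). Of the 32 calls, 25 stood with any of the 8 flowering libraries left out. The 25 include the 5 tested genes listed at 0 outside male week 3. For these, leaving out a week 1 or female week 3 library could not change the difference. For LOC115708192 the sex difference moved from 0.93 towards male at week 1 to -0.28 ± 0.15 at week 3 (interaction -1.21 ± 0.21, adjusted p = 0.00112).

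**Figure D5:**
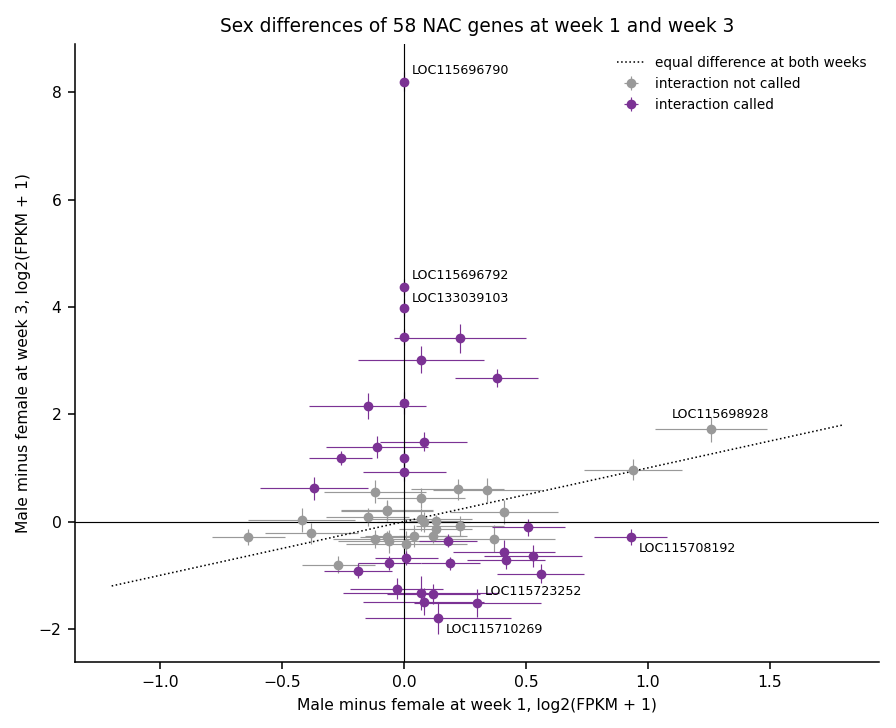
Male minus female difference in log2(FPKM + 1) of each of the 58 NAC genes at week 1 (horizontal axis) and week 3 (vertical axis), with standard errors; purple points are the 32 genes with a called interaction and the dotted line marks equal differences. Points spread far more along the vertical than the horizontal axis, from -1.79 for LOC115710269 to 8.20 for LOC115696790 at week 3.

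Against vegetative apices, the authors' deposited table had 28 of the 58 genes changed in female week 3 (background 37.7%) and 29 in male week 3 (background 54.8%). Between the sexes at week 3, the authors' deposited table had 28 (background 55.8%), and limma called every one of these in the same direction. From week 1 to week 3, the authors' deposited table had 30 changed in female apices (background 40.2%), of which limma called 27, and 27 in male apices (background 49.4%), of which limma called all. In each comparison with male week 3, the authors' share of the 58 lay under its background. Limma's shares there were 67.2% against vegetative apices (background 62.8%) and 63.8% between the sexes (background 60.3%). From male week 1 to week 3 limma's share was 60.3% (background 61.7%). Against vegetative apices at week 1, the authors' deposited table had 3 in female (background 7.28%) and 2 in male apices (background 4.42%), of which limma called 1 and 2. Across the 9 comparisons, limma called 50 of the 58 genes at least once (86.2%, background 83.3%). The 8 never called were LOC115709817, LOC115704732, LOC115718596, LOC115698488, LOC115698755, LOC115704795, LOC115712070 and LOC115712846. LOC115706004, closest to NAC078, was abundant throughout, at 25.2 to 29.8 FPKM in the 6 earlier and 33.7 to 36.9 in the 4 week 3 libraries, which did not overlap. It rose in male week 3 against vegetative apices by 0.45 ± 0.11, adjusted p = 0.00415. Its rises in female week 3 against vegetative apices (0.43, adjusted p = 0.011) and from week 1 to week 3 in female (0.40, adjusted p = 0.0151) and male apices (0.29, adjusted p = 0.0335) were lost with a library left out, at adjusted p-values of up to 0.0787, 0.0984 and 0.138.

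Some members were listed at 0 outside male week 3. Of all 81, 12 were listed at 0 in the 8 other libraries and above 0 in both male week 3 libraries (14.8%), as were 828 of 35192 genes in the table (2.35%). Their median identity to the closest Arabidopsis protein was 39.4%, beside 51.9% in the 69 other members, with ranges of 30.9% to 80.1% and 25.9% to 84.5% that overlap. Of the 18 members under 40% identity, 13 had their highest mean in male week 3, as did 23 of the 63 at or above it. On chromosome 6 lay 14 of the 81 (17.3%), as did 8.81% of the 34658 genes of the table with a known place, and 5 of the 12 above. Of the 81, 35 lay in 13 runs of NAC genes no more than 500000 bases apart. A run of 3 NAC025 matches on chromosome 6, between bases 2938487 and 3005715, was listed at 0 in all libraries outside male week 3, with levels of 0.233 to 1.56 FPKM there. A run of 7 on the same chromosome, between bases 3583494 and 4026682, held LOC115725272 and LOC115695713, given above, 4 genes listed at 0 in every library, and LOC133039088, above 0 in a single library at 0.116 FPKM in male week 3 replicate 1.

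The 23 members under 1 FPKM in every group had highest group means of at most 0.924 FPKM. Of these, 4 were listed at 0 throughout (LOC115694863, LOC133039046, LOC133039085 and LOC133039043). Of the other 19, 13 had their highest mean in male week 3, among them matches to root cap factors: LOC115723181, described as BEARSKIN2-like and 80.1% identical to BRN2, stood at 0.334 and 0.168 FPKM in male week 3, LOC115723676 at 0.289 and 0.0969, and the FEZ match LOC115698713 at 0.144 and 0.241, all listed at 0 elsewhere. A fit without the filter on low values took in these 19 and called 7 of them, each higher in male week 3 than in vegetative, male week 1 and female week 3 apices, by 0.17 to 0.60. The 3 root cap matches were among the 7, at adjusted p-values against female week 3 of 0.00265 for LOC115723181, 0.0165 for LOC115723676 and 0.00228 for LOC115698713. Their male week 3 values lie near the floor, and groups at 0 add no spread to the fit. With depth in reads unknown, these p-values do not measure counting noise and may be too small.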

How the data were processed

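Messenger RNA from apical shoot tips was measured in 10 libraries of 5 groups, grouped by the labels. Per the labels' protocols, total RNA was column-purified with a DNase step and a company made Illumina libraries. Which aligner, counter and normalisation were used is not given in the sources used here. Values deposited by the authors carry no named unit and were read as FPKM, because library totals differ and low values come in steps set by gene and library. RPKM cannot be told apart from it. Per the file headers, the assembly is ASM2916894v1, and the table also holds the authors' log2 fold changes, their p-values and adjusted p-values, and the percent identity to the closest Arabidopsis protein, which the authors deposited. Some values lie far below the worth of 1 read, so how reads were shared between near-identical copies is uncertain. Depth in reads is unknown and no counting interval can be given.

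The 18309 genes whose mean reached 1 FPKM in any group were fitted as log2(FPKM + 1) with limma 3.58.1 in R 4.3.3: 1 mean per group, empirical Bayes with trend and robust estimation, 5 residual degrees of freedom with 4.63 prior ones (median), 2-sided tests, Benjamini-Hochberg over all genes tested, threshold 0.05. The design text assumed FPKM or counts, and the FPKM test was used. The script was tested on simulated data. NAC genes were counted within this fit. The NAC members, their roles, the gene lists and the named genes were chosen with earlier results of these data known. The named genes were all tested organ boundary and vessel and fibre wall members, per comparison the 6 largest called rises and 6 largest called falls, all members called between the sexes at week 1 or in the interaction, and the 5 with the highest mean, with a subset given in places. Lists were matched on the closest Arabidopsis protein. Alternatives were a pseudocount of 0.1 FPKM, no filter, scaling between libraries, the replicate number as a block, a fit of the compared groups only, and each library left out. The correlation of replicate deviations between same-numbered libraries of different groups ran from -0.42 to 0.21, so the numbers were not taken to pair libraries.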

Additional observations from a re-analysis of the deposited data

Results flagged for a closer look

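The male minus female difference changed between week 1 and week 3 for 32 of the 58 tested NAC genes, by limma's test of the interaction at an adjusted p under 0.05. The values below are that change in log2(FPKM + 1), positive where the difference moved towards male apices. Of all 18309 genes tested, 45.6% passed the same test.

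Towards female apices, the genes that passed with any library left out had changes of -1.93 for LOC115710269 (closest to JUB1), -1.81 for LOC115723252 (closest to NAC047), -1.57 for LOC115724173 (closest to NAC087), -1.53 for LOC115698866 (closest to NAC044), -1.46 for LOC115707050 (closest to NTL9) and -1.22 for LOC115704983 (closest to NAC075), and of -1.21 for LOC115708192 (closest to BRN1), -1.17 for LOC115704045 (closest to NTL9), -1.14 for LOC115708110 (closest to NTL9), -0.97 for LOC115706009 (closest to NAC052) and -0.71 for LOC133037724 (closest to NAC091). A further 6 did not pass with at least 1 library left out, with changes of -1.40 for LOC115717256 (closest to NST1), -0.97 for LOC115697141 (closest to CUC2), -0.73 for LOC115715736 (closest to NAC014), -0.68 for LOC115712310 (closest to NAC017), -0.61 for LOC115703936 (closest to NAC036) and -0.54 for LOC115712323 (closest to NAC017).

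Towards male apices, the genes listed at 0 in both week 1 groups had changes of 1.18 for LOC133038988 (closest to NAC025), 2.21 for LOC115697858 (closest to NAC025), 3.44 for LOC115694873 (closest to NAC055), 3.99 for LOC133039103 (closest to NAC055), 4.38 for LOC115696792 (closest to ATAF2) and 8.20 for LOC115696790 (closest to VND6), none of which is a fold, since the groups at 0 give no ratio. Other changes towards male apices were 0.93 for LOC115706270 (closest to NARS1), 1.41 for LOC115706643 (closest to NAC020), 1.45 for LOC115700444 (closest to NAC053), 1.5 for LOC115695713 (closest to NAC055), 2.29 for LOC115721797 (closest to NAC028), 2.30 for LOC115724776 (closest to NAC053), 2.95 for LOC115721938 (closest to NAC055) and 3.19 for LOC115725272 (closest to NAC055). The change of 0.99 for LOC115710199 (closest to VNI2) did not pass when any 1 of 5 libraries was left out. The 11 tapetum and pollen markers also passed this test in the male direction, and their part in these changes was not tested.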

How the results depend on the processing

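Counts of called NAC genes kept within 1.5 times the reported number under the alternatives run, apart from week 1. In female week 1 against vegetative apices a pseudocount of 0.1 FPKM gave 4 calls in place of 1. In male week 1 against vegetative apices the fit of the compared groups only gave 0 in place of 4, and leaving out 1 library gave 3 to 10, with 10 without male week 1 replicate 2. Between the sexes at week 1 leaving out 1 library gave 0 to 2 in place of 0, with 2 without male week 1 replicate 2. The cause was not tested. Leaving out 1 library gave 1 in female week 1 against vegetative apices, 22 to 27 in female and 34 to 37 in male week 3 against vegetative apices, 30 to 33 between the sexes at week 3, 21 to 22 from female and 31 to 33 from male week 1 to week 3, and 26 to 32 in the interaction. With the replicate number as a block (replicate block) the counts were 1, 3, 28 and 38 against vegetative apices for the 2 week 1 groups (female, then male) and the 2 week 3 groups (same order), 0 and 33 between the sexes at weeks 1 and 3, 28 and 35 from female and male week 1 to week 3, and 31 in the interaction. The crossed pairing, chosen after seeing the data, gave 0 between the sexes at week 1 and 30 from female week 1 to week 3. No call of a single gene changed direction. Of the 207 calls of single genes, 156 passed with any 1 library left out and 51 did not. For genes listed at 0 outside male week 3, leaving out a library at 0 could not change the difference. The replicate block ended 10, the pseudocount 8, no filter 7, scaling between libraries 4 and the fit of the compared groups only 14. Scaling moved the median of all genes by at most 0.05 log2 units. Where a library was left out, the lone library of its group was assumed to vary like those of the other groups. Without the filter, 19 members under 1 FPKM in every group were also fitted and 7 were called, all higher in male week 3. These 7 were listed at 0 in the other groups, which add no spread to the fit, so their p-values may be too small. Depth in reads is unknown.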
